A study of Mus musculus with 4 samples.

Results

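The Chd7 knockout of the G1ER line was compared with its wild type before the cells were given beta-estradiol, as 1 library of each genotype titled 0 h. These are 2 of the 4 libraries of the series. They were described over the 8964 genes, of 23936 in the deposited table, whose mean over the 4 libraries was at least 1 FPKM (fragments per kilobase of transcript and M mapped fragments, where M stands for mega). The other libraries are the same genotypes after 24 h of beta-estradiol, and they are used here to see whether a difference at 0 h was present in a second pair that shares no library with the first.

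G1ER is an erythroblast line of the mouse without an intact GATA1 of its own, the master regulator of red cell maturation, and it carries a fusion of GATA1 with the estrogen receptor. Per the labels' protocols both genotypes grew in the same serum-containing medium with erythropoietin (EPO) and conditioned medium as a source of stem cell factor (SCF), and total RNA was depleted of ribosomal RNA. The study asked what CHD7 loss does to erythroid differentiation of these cells. The treatment label reads estradiol for every library, so the time was taken from the titles, and the labels do not say how the knockout was made or whether it is a single clone.

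CHD7 is a chromodomain helicase, an enzyme that uses ATP to slide nucleosomes, and it sits mostly at enhancers and active promoters. In humans, loss of a copy of CHD7 causes CHARGE syndrome, and in mouse neural crest cells CHD7 is known to hold the tumour suppressor p53 in check. An erythroblast without active GATA1 is held as a dividing progenitor that still carries transcripts of related lineages such as mast cells, and it lowers these while it loads up on globin, heme enzymes and membrane proteins once GATA1 acts.

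Approximate depths, from the FPKM step worth 1 fragment, were 15.1 M fragments for wild type and 14.9 M for the knockout at 0 h, and 17.9 M and 15.9 M at 24 h. At the lowest of these, the 95% half-width from counting alone for a log2 ratio of FPKM was 0.73 at 1 FPKM on a transcript of 2 kb, 0.33 at 5 FPKM and 0.10 at 50 FPKM. These widths cover counting error only, and with 1 library per group there is no replicate error, no SD and no p-value anywhere below. At 0 h the FPKM of the wild-type library summed to 923195 and that of the knockout library to 1604980, of which small RNA and predicted loci took 42.7% and 68.8%. The Chd7 row (chromosome 4, 8690402 to 8868449, GRCm38) is listed at 0 in all 4 libraries, wild type included, so it checks no genotype label, and a listed 0 in this table can be a failed estimate. The erythroid markers Klf1 (54.0 FPKM in wild-type against 51.0 in knockout cells at 0 h), Tal1 (40.4 and 43.5) and Epor (20.99 and 20.1) were present in both libraries. The lymphoid markers Cd3e and Cd79a and the neutrophil and monocyte markers Mpo, Elane, Ly6c2 and S100a8 are listed at 0 in both.

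Before estradiol the genotypes differed in few genes. Of the 8964 genes, 39 were at least 2-fold higher in the knockout (0.435%) and 58 at least 2-fold lower (0.647%), on the scale of log2(FPKM + 1), which understates the ratios of low genes. Together these are 1.08% of the genes, and 95.9% of all genes lay within 1.5-fold. Leaving out small RNA and predicted loci, 15 of 8440 genes were higher (0.178%) and 46 lower (0.545%), so that 24.6% of the called genes were higher, against 40.2% with those loci in. The share called depended on abundance. It was 2.53% of the 514 genes with 1 to 2 FPKM at 0 h, 0.518% of the 3472 genes with 5 to 20 FPKM and 0.296% of the 675 genes with at least 100 FPKM, the small loci left out.

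Over all genes the log2 ratio had a median of -0.07. Scaling the libraries to an equal sum (TPM, transcripts per M), a sum in which the snoRNA gene Snord49a takes 33.9% of the knockout library, moved this median to -0.78 and the called genes to 28 higher and 1118 lower (2.44% higher). Single genes that were higher by less than this shift turn to lower under TPM, and values are read here relative to the median of all genes. An equal sum over the loci that are no small RNA or predicted genes left 43 higher and 51 lower, with a median of 0.00.

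**Figure D1:**
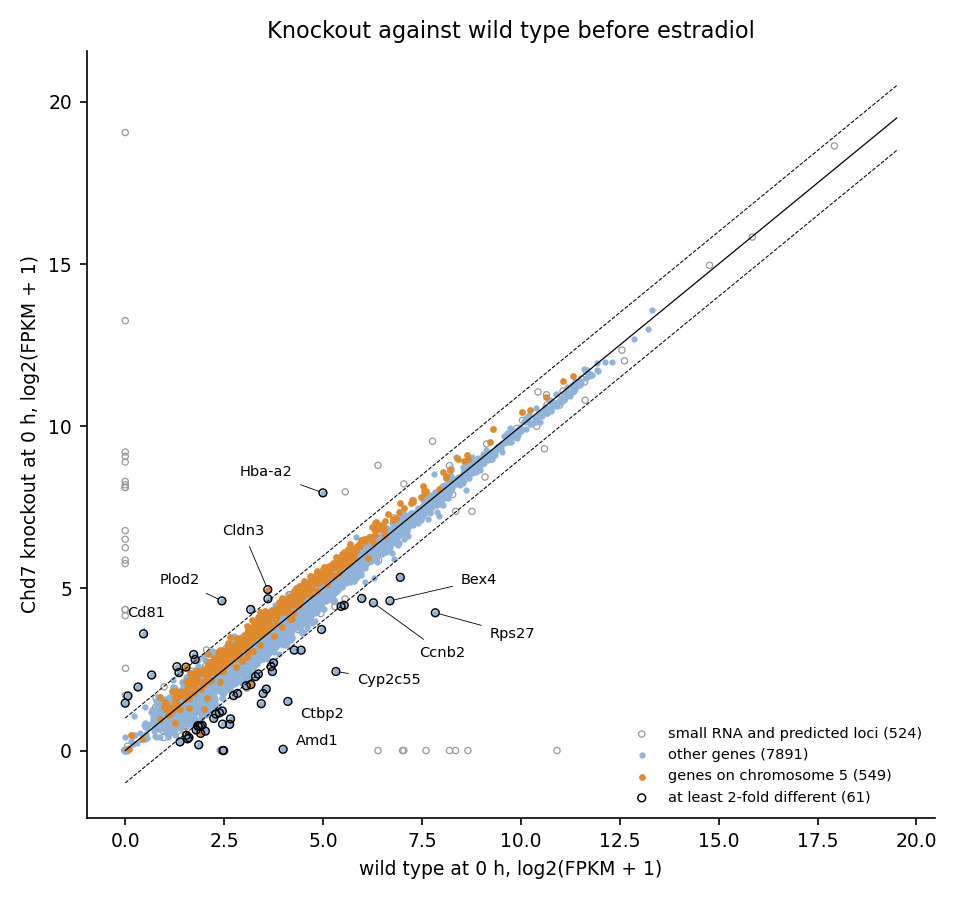
Each point is 1 gene, with log2(FPKM + 1) in wild type at 0 h on the x axis and in the knockout at 0 h on the y axis, dashed lines at 2-fold and genes of chromosome 5 in orange. The points hug the diagonal except for 61 circled genes and a set of small loci listed at 0 in 1 library, and the chromosome 5 genes run along its upper edge.

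Among genes that reached 5 FPKM in either 0 h library, Cd81 had the highest ratio. Cd81 (chromosome 7, 143052750 to 143067930), a tetraspanin that organises receptors in the cell membrane, measured 0.38 FPKM in wild-type cells against 11.1 in knockout cells at 0 h and 0.20 against 10.4 at 24 h. Its log2 ratio was 3.13 before estradiol and 3.26 after, so it was near absent in both wild-type libraries and plainly present in both knockout libraries. Cd81 reached the mean of 1 FPKM only through the knockout libraries, so its call follows in part from the filter. Plod2 (chromosome 9, 92539636 to 92608428), a lysyl hydroxylase that prepares collagen for cross-linking, measured 4.44 against 23.5 FPKM at 0 h and 5.09 against 21.8 at 24 h, with ratios of 2.17 and 1.90. Both knockout libraries were about equally high. Hba-a2, an adult alpha-globin gene, measured 30.9 FPKM in wild-type cells against 245 in knockout cells at 0 h (2.95). Its near-identical neighbour Hba-a1 stood at 114 and 111, and the way fragments were shared between the copies is not given in the sources used here. Their sum, 145 FPKM in wild-type against 356 in knockout cells, had a log2 ratio of 1.29.

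Next came Cldn3 (11.2 and 30.1 FPKM at 0 h, 5.06 and 6.03 at 24 h), which encodes a claudin of tight junctions, Zmat3, Ms4a2, Cpa3 and Slc45a3, a membrane transporter gene (2.40 and 5.99 FPKM at 0 h, 1.17 and 1.67 at 24 h). Below 2-fold followed Arhgap15, Cebpe, Vkorc1, Mxd4, Orai2, Dcun1d4 and Cldn13, with log2 ratios between 0.84 and 0.95. Of these 15 genes, Cldn3, Mxd4, Orai2, Dcun1d4 and Cldn13 lie on chromosome 5, whose genes as a group were higher in the knockout, as described further on. Cldn13, a claudin close to Cldn3 on the chromosome, measured 8.16 against 15.4 FPKM at 0 h and 23.1 against 89.1 at 24 h.

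Genes at least 2-fold lower in the knockout were more numerous, 58 against 39 higher, though not with 5 FPKM added before the log (23 against 25). Cyp2c55 (chromosome 19, 39006940 to 39042690), a cytochrome P450 enzyme, measured 39.1 FPKM in wild-type cells against 4.42 in knockout cells at 0 h and 28.5 against 3.001 at 24 h, with log2 ratios of -2.89 and -2.88. Ctbp2 (chromosome 7, 132986998 to 133124009), a corepressor of transcription, measured 16.3 against 1.85 FPKM at 0 h and 11.7 against 0.88 at 24 h (-2.60 and -2.76). Both genes were low in both knockout libraries and high in both wild-type libraries. Mgmt, which removes methyl groups from damaged guanine, stood at 4.54 FPKM in wild type at 0 h and 2.61 at 24 h and is listed at 0 in both knockout libraries. Syne1, a linker of the nuclear envelope to the cytoskeleton, stood at 4.61 and 2.97 FPKM in wild type, is listed at 0 in the knockout at 0 h and stood at 0.80 at 24 h.

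Ctsl, the lysosomal protease cathepsin L, stood at 5.23 and 0.75 FPKM at 0 h, and Fkbp11, a protein folding enzyme of the endoplasmic reticulum, at 10.2 and 2.38. Aox4, an aldehyde oxidase gene, stood at 10.8 and 2.72 FPKM, and Mapkapk2, a kinase activated by p38, at 20.8 and 7.53. Lst1, a leukocyte gene, stood at 12.2 and 4.41 FPKM. The log2 ratios of these genes lay between -1.83 and -1.28 at 0 h. Each was also at least 2-fold lower in the knockout at 24 h. Ctsl reached the mean of 1 FPKM only through the wild-type libraries, so its call follows in part from the filter.

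The lowest ratios among genes other than small and predicted loci, those of Amd1 and Rps27, belonged to genes with close copies. Amd1, which makes a precursor of polyamines, measured 14.9 FPKM in wild-type cells against 0.03 in knockout cells at 0 h (log2 ratio -3.95), but 0.02 in both genotypes at 24 h. Its copy Amd2, chosen with its values known, measured 89.7 against 109 FPKM at 0 h and 90.0 against 82.2 at 24 h. Rps27, a protein of the small ribosomal subunit, stood at 228 and 18.0 FPKM at 0 h (-3.59) and at 82.1 and 80.3 at 24 h. The close copy Rps27rt, added in the same way, stood at 2575 and 2327 FPKM at 0 h. Both ratios are therefore uncertain, since the split of fragments between copies is not known, and neither gene was 2-fold different at 24 h.

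**Figure D2:**
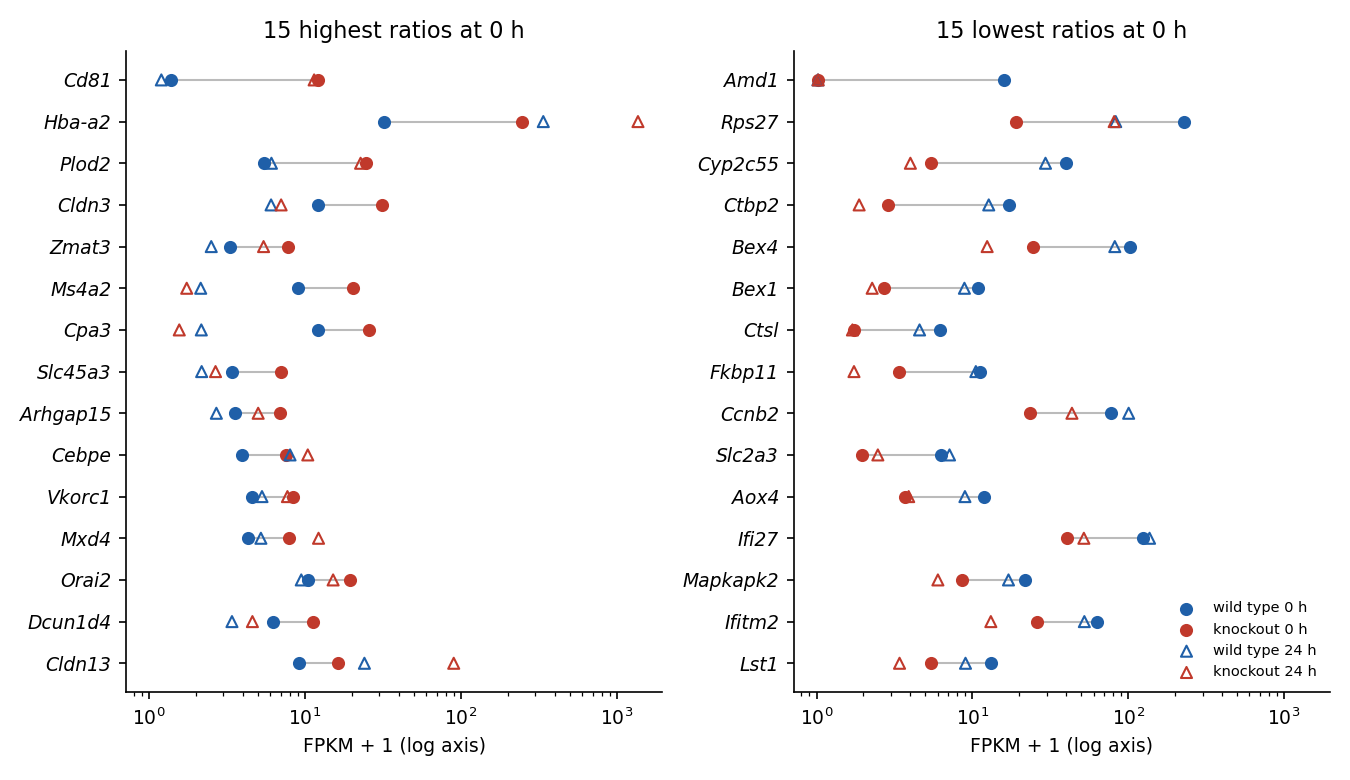
FPKM + 1 on a log axis for the 15 genes with the highest and the 15 with the lowest ratio at 0 h, blue for wild type and red for the knockout, filled circles for 0 h and open triangles for 24 h. In most rows the triangles lie in the same order as the circles, whereas Ms4a2 and Cpa3 drop to about 1 FPKM or less in both genotypes at 24 h and Rps27 and Amd1 are level between genotypes.

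Bex1 and Bex4, X-linked genes of a small family of adaptor proteins named after their expression in brain, were low together. Bex4 (chromosome X, 136138996 to 136140443) measured 102 FPKM in wild-type cells against 23.5 in knockout cells at 0 h and 81.0 against 11.4 at 24 h, with log2 ratios of -2.08 and -2.72. Bex1 (chromosome X, 136213972 to 136215513) measured 9.84 against 1.72 FPKM at 0 h and 7.89 against 1.27 at 24 h (-1.99 and -1.97). The 300 bases that RefSeq (GRCm38.p6) places around the starts of Bex1 (chrX:136215464-136215763, minus strand) and Bex4 (chrX:136138746-136139045, plus strand) are nearly the same sequence. They are shown because this pair moved together. Of 294 aligned bases 288 were identical (98.0%), and capitals mark the longest shared run, of 271 bases.
Bex1: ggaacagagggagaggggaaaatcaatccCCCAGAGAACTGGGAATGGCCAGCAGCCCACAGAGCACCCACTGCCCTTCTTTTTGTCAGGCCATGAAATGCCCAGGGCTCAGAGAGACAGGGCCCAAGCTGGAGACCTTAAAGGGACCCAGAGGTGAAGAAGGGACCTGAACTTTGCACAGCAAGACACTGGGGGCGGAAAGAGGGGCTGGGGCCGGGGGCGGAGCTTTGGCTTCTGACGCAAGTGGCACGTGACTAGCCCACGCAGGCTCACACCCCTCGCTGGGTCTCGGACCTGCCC
Bex4: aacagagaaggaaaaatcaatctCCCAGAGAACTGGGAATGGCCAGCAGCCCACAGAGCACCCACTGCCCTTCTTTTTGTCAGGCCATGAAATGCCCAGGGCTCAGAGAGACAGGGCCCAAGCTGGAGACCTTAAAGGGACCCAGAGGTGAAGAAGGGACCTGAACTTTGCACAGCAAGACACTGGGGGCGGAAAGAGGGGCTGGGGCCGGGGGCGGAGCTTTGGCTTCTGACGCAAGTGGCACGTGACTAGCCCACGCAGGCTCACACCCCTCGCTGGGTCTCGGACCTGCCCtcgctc
Most of each window lies before the start of the transcript, so this is a likeness of promoters. The likeness of the transcripts, and how it may affect the placing of reads, was not tested.

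The targets of p53, a transcription factor that answers DNA damage and other stress by stopping the cell cycle or killing the cell, leaned to higher values. Of 50 listed genes 36 were measured, of which 3 were at least 2-fold higher and 0 lower, beside 0.435% higher and 0.647% lower among all genes. Their median log2 ratio was 0.12, beside -0.07 for all genes, and 27 of 36 lay above 0, beside 3104 of 8964. Without the 2 members on chromosome 5 the median was 0.11. The lean was not particular to this list. Relative to all genes its median was 0.19, beside 0.20 for iron handling, 0.19 for cytokine receptor and signalling and 0.18 for cholesterol synthesis genes. Some lists with fewer measured genes stood higher. These included globins (6 measured, 0.42), megakaryocyte and platelet genes (6 measured, 0.42) and neutrophil and monocyte genes (11 measured, 0.22). Of the 3 higher genes, Eda2r reached the mean of 1 FPKM only through the knockout libraries, so its call follows in part from the filter. The list was drawn up with an earlier result of these data in view.

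The 3 called members take part in arrest and cell death. Zmat3 (chromosome 3, 32334792 to 32365665), an RNA-binding zinc finger protein made in response to p53, measured 2.32 FPKM in wild-type cells against 6.78 in knockout cells at 0 h and 1.503 against 4.42 at 24 h, with log2 ratios of 1.23 and 1.12. Trp53inp1, which promotes p53-dependent death, measured 1.47 against 4.998 FPKM at 0 h and 2.93 against 9.17 at 24 h (1.28 and 1.37). Eda2r, a death receptor, measured 0.25 against 2.89 FPKM at 0 h and 0.16 against 1.68 at 24 h (1.63 and 1.21). In each case both knockout libraries were above both wild-type libraries. The 95% counting half-width at 0 h was 0.20 for Zmat3, 0.29 for Trp53inp1 and 0.69 for Eda2r, on log2 ratios of FPKM.

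By role, the median at 0 h was 0.30 over 10 cell death genes and 0.14 over 11 arrest genes, against 0.09 over 4 genes that feed back on p53 and 0.04 over 5 repair genes. Among arrest genes Ccng1, cyclin G1, stood at 56.2 and 94.2 FPKM (0.74) and Cdkn1a, the inhibitor p21, at 5.56 and 9.47 (0.68). Among death genes Bax, which opens mitochondria, stood at 64.1 and 81.3 (0.34) and Bbc3, which encodes PUMA, at 5.89 and 7.44 (0.29). Mdm2, the ligase that marks p53 for destruction, and Ppm1d, a phosphatase that quiets it, measured 15.2 and 15.9 and 8.31 and 9.04 FPKM (0.07 and 0.11). Ddb2, a damage sensor, was the lowest member, at 5.25 and 3.65 FPKM (-0.43).

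The genes that set p53 activity did not share this lean. Of 17 listed regulators 14 were measured, 0 were 2-fold different, and their median was -0.08, close to that of all genes. Trp53, which encodes p53 itself, measured 16.7 FPKM in wild-type cells against 13.3 in knockout cells (-0.31), the lowest of them. Chek2, a damage-activated kinase on chromosome 5, stood at 14.7 and 22.4 (0.58), the highest. The antiproliferative genes outside the p53 list, of which 11 of 14 were measured, had 0 called members and a median of -0.19, with Cdkn2d at 4.74 and 3.18 FPKM and Cdkn1b at 12.5 and 9.78.

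Genes of mitosis, the machinery that aligns and parts the chromosomes, had a median slightly below that of all genes. Of 85 listed genes 84 were measured, 2 were at least 2-fold lower and 0 higher, beside 0.647% lower and 0.435% higher among all genes. Of the 84, 14 lay above 0, beside 3104 of 8964, and the median was -0.16, beside -0.07. The role medians were much alike, at -0.14 for entry factors, -0.16 for checkpoint and kinetochore genes, -0.17 for spindle motors, -0.13 for chromosome structure and -0.14 for cytokinesis. The highest members, Cit, Cenpa and Tacc3 (log2 ratios 0.41, 0.31 and 0.23), lie on chromosome 5.

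Ccnb2 (chromosome 9, 70407689 to 70421554), cyclin B2, a partner of the mitotic kinase CDK1, stood well below the rest of the list. It measured 76.4 FPKM in wild-type cells against 22.5 in knockout cells at 0 h and 99.6 against 42.5 at 24 h, with log2 ratios of -1.72 and -1.21 and a counting half-width of 0.14 at 0 h. Both knockout libraries were below both wild-type libraries. The list's other called member, Incenp, a scaffold of the chromosomal passenger complex, measured 45.4 against 21.3 FPKM at 0 h and 40.0 against 22.9 at 24 h (-1.06 and -0.78). Below 2-fold, Cdc25b, a phosphatase that switches on CDK1, stood at 2.14 and 0.92 FPKM (-0.71), Pttg1, which encodes securin, at 26.7 and 17.9 (-0.55), and Top2a, a DNA topoisomerase, at 201 and 139 (-0.53). Ccnb1, the sister cyclin, measured 153 and 124 FPKM (-0.31) and Cdk1 40.5 and 31.4 (-0.36).

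The promoters of many mitotic genes carry CCAAT boxes and a cell cycle homology region. A repressor complex downstream of p53 and p21 is known to act through the cell cycle homology region. The letters CCAAT, on either strand, were found in 53 of 76 windows of 300 bases at the starts of the measured mitosis genes (69.7%). The shares were 37.4% of all 32851 promoters, 39.2% of those of the described genes and 56.8% of the promoter windows of the p53 targets. The letters TTTGAA, on either strand, were found in 50 of 76 (65.8%), against 17.9% and 12.05%, and in 10.8% of the promoter windows of the p53 targets. Ccnb2 (chr9:70421505-70421804, minus strand, RefSeq GRCm38.p6) holds 3 matches to the first and 2 to the second, in capitals, and is shown as the lowest gene of the list.
Ccnb2: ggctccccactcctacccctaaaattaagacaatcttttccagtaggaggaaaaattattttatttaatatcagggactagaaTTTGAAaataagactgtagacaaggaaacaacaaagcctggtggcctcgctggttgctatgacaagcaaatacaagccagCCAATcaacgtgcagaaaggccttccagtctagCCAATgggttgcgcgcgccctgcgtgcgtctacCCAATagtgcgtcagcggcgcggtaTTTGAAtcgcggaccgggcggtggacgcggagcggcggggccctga
A match is a description and neither a proven site nor a cause. The shares describe which genes the list holds and were not set against the ratios.

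DNA replication genes, all 60 of which were measured, had 0 called members and a median of -0.07, equal to that of all genes. Without the 11 members on chromosome 5 the median was -0.12. Tyms, which makes thymidine nucleotides (20.5 and 30.2 FPKM), Pole, a replicative polymerase (18.8 and 29.4), and Mcm7, part of the replicative helicase (191 and 242), are among those members. Pold1 stood lowest, at 67.7 and 54.4 FPKM (-0.31).

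Mast cell genes split. Cpa3 (chromosome 3, 20215616 to 20242209), a carboxypeptidase of mast cell granules, measured 11.2 FPKM in wild-type cells against 24.6 in knockout cells at 0 h and 1.16 against 0.56 at 24 h, with log2 ratios of 1.07 and -0.47. Ms4a2 (chromosome 19, 11615517 to 11623790), the beta chain of the high-affinity IgE receptor, measured 8.01 against 19.4 FPKM at 0 h and 1.14 against 0.74 at 24 h (1.18 and -0.30). The 0 h half-widths were 0.22 and 0.20. Both genes were higher in the knockout before estradiol, and at 24 h both were low in either genotype with the order turned round. That order is uncertain, since the counting half-width was 0.73 at 1 FPKM on a transcript of 2 kb. Hdc, which makes histamine, stood at 0.77 and 1.961 FPKM (0.74) and Il1rl1, the interleukin-33 receptor, at 17.2 and 19.6 (0.18).

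The rest of the mast cell list did not follow them. Of 25 listed genes 9 were measured, 2 were higher and 0 lower, beside 0.435% and 0.647% of all genes. Of the 9, 5 lay above 0, beside 3104 of 8964, and the median was 0.02, beside -0.07. Tph1, which makes serotonin, stood at 3.75 and 2.11 FPKM (-0.61), Il3ra at 4.69 and 3.41 (-0.37), and Slc18a2, a monoamine transporter, at 1.45 and 0.96 (-0.33). Of the defining mast cell genes, Fcer1a stood at 0.22 and 0.07 FPKM, Tpsb2 at 0.07 and 0, and Cma1 at 0 and 0.07. Mcpt8, a basophil protease, is listed at 0 in both. The list summed to 59.0 FPKM in wild-type against 84.4 in knockout cells, and 10 of its genes are listed at 0 in each. In bulk RNA, fewer cells of a type and less RNA per cell cannot be told apart.

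The promoter windows of the 9 measured mast cell genes, 13 in all, held the letters AGATAA or TGATAA, the core bound by GATA factors, in 6 cases (46.2%), against 18.6% of all promoters and 9.91% of those of the described genes. The promoters of both called members are shown with these letters, on either strand, in capitals. In Cpa3 (chr3:20242132-20242431, minus strand) ACCACA, the reverse complement of the RUNX core TGTGGT, is in capitals as well. Ms4a2 is given at chr19:11623670-11623969, minus strand, and both are from RefSeq GRCm38.p6.
Cpa3: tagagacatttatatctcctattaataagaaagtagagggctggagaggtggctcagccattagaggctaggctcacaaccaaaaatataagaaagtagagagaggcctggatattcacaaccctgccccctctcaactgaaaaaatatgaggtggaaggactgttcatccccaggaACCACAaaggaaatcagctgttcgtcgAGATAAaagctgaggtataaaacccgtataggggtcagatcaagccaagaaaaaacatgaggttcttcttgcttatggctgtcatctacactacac
Ms4a2: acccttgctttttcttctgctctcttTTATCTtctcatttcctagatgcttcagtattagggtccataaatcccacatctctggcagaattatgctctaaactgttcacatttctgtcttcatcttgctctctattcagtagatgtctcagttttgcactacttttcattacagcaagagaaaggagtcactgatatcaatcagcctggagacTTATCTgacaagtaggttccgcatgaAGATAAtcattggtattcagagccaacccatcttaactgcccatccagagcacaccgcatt
The RUNX core was found in 16.8% of all promoters and in 12.3% of those of the described genes. It was found in 4 of the 13 windows of the mast cell genes (30.8%). With small loci left out, it was found in 2 of 12 windows of the higher genes (16.7%) and 6 of 49 of the lower genes (12.2%). The GATA letters were found in 4 of those 12 windows (33.3%) and in 3 of those 49 (6.12%). The windows of Cpa3 and Ms4a2 are among the 12. These shares describe which genes the sets hold and were not tested. Runx1, a transcription factor of blood cells named in the series title, measured 5.76 against 5.24 FPKM at 0 h and 6.32 against 7.24 at 24 h.

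Other myeloid genes also moved in both directions. Of 36 neutrophil and monocyte genes 11 were measured and 0 were called. Of the 11, 7 lay above 0, beside 3104 of 8964 genes, and the median was 0.14. Cebpe, a transcription factor of granulocytes, measured 2.93 FPKM in wild-type cells against 6.55 in knockout cells (0.94), Mmp8, a collagenase of neutrophils, at 2.56 and 5.04 (0.76), and Lyz2, lysozyme, at 2.81 and 4.78 (0.60). Ncf4, a subunit of the oxidase that makes superoxide, stood at 1.84 and 0.90 (-0.58). The whole list summed to 142 FPKM in wild-type against 139 in knockout cells, with 16 and 15 genes listed at 0. The eosinophil granule gene Prg3 stood at 1.31 and 2.88 FPKM (0.75) and Prg2 at 0.19 and 0.38, and these were the 2 measured of 11 listed.

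Megakaryocyte and platelet genes were few. Of 23 listed 6 were measured, 0 were called and the median was 0.35. Gp9 and Gp5, parts of the platelet receptor for von Willebrand factor, stood at 1.00 and 2.00 FPKM and at 1.10 and 1.68, and Plek at 23.4 and 16.1. Lymphoid genes gave 0 measured of 18 listed, and 14 of the 18 are listed at 0 in every library. Below the filter, Cd3g stood at 2.02 and 0.30 FPKM at 0 h and at 1.31 and 0.07 at 24 h (-1.22 and -1.11). What part these markers play in any other difference was not tested.

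Progenitor genes had a median slightly above that of all genes. Of 19 listed 12 were measured, 0 were called and the median was 0.04, or 0.00 without Kit, beside -0.07. Of the 12, 7 lay above 0, beside 3104 of 8964 genes, and 11 lay above the median of all genes. Kit, the receptor for stem cell factor, lies on chromosome 5 and measured 39.4 FPKM in wild-type cells against 61.3 in knockout cells (0.63). Myb stood at 89.4 and 87.6 FPKM, Spi1 at 12.9 and 12.5, and Ikzf1 at 30.3 and 25.3 (-0.25).

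Beta-globin and alpha-globin were higher in the knockout before any estradiol. Heme synthesis, red cell membrane and erythroid regulator genes had medians between -0.02 and 0.06, slightly above that of all genes. Hbb-b1 and Hbb-b2, adult beta-globin genes, stood at 326 and 528 FPKM (0.69) and at 223 and 366 (0.72), and at 24 h Hbb-b1 stood at 7865 and 13127. They share near-identical sequence, as the alpha-globin genes do. Of 13 listed globin genes 6 were measured and 1 was at least 2-fold higher, beside 0.435% of all genes. Of the 6, 3 lay above 0, beside 3104 of 8964 genes, and the median was 0.35. The beta-globin ratios turn to lower under TPM, while the list stayed above the median of all genes.

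Heme synthesis genes, 17 of 17 measured, had 0 called members and a median of -0.02. Alas2, the first enzyme of that pathway in red cells, stood at 2.32 and 2.62 FPKM, Glrx5, which serves iron-sulfur clusters, at 195 and 219, and Uros at 15.4 and 11.4 (-0.40). At 24 h the median of this list was 0.36, and 2 members were at least 2-fold higher, beside 0.714% of all genes. Red cell membrane genes, 19 of 21 measured, had 0 called members and a median of 0.06. Of the 19, 14 lay above 0, beside 3104 of 8964 genes. Ank1, ankyrin, was highest at 4.93 and 8.05 FPKM (0.61). At 24 h their median was 0.53.

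Erythroid regulators, 21 of 21 measured, had 0 called members and a median of 0.03. Gata1 was the highest, at 31.1 FPKM in wild-type against 46.7 in knockout cells at 0 h and at 38.2 and 63.7 at 24 h (0.57 and 0.73). Since the line lacks an intact Gata1 gene and carries a GATA1 fusion, this row does not give the level of a normal gene. Zfpm1, the GATA1 partner FOG1, stood at 34.6 and 39.9 FPKM, Stat5a, which acts below the EPO receptor, at 61.1 and 50.8, and Nfe2 at 53.9 and 45.7. Iron handling genes, 14 of 15 measured, had 0 called members and a median of 0.13. Of the 14, 11 lay above 0, beside 3104 of 8964 genes. Tfr2, on chromosome 5, stood at 40.5 and 55.1 FPKM and Aco1, an iron sensor, at 58.5 and 46.6.

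Glycolysis, the breakdown of glucose to lactate, leaned to lower values. Of 26 listed genes 22 were measured and 1 was at least 2-fold lower, beside 0.647% of all genes. Of the 22, 3 lay above 0, beside 3104 of 8964, and the median was -0.26, beside -0.07. At 24 h the median was -0.32. The called gene was Slc2a3, a glucose transporter, at 5.33 FPKM in wild-type against 0.97 in knockout cells at 0 h and at 6.13 and 1.47 at 24 h (-1.69 and -1.53). The main transporter Slc2a1 stood at 43.7 and 32.2 FPKM at 0 h (-0.43) and Slc16a3, a lactate exporter, at 2.04 and 1.08 (-0.54). Bpgm, which makes the red cell metabolite that loosens oxygen from haemoglobin, was the highest at 7.31 and 7.96. The list summed to 10876 FPKM in wild-type against 9032 in knockout cells, and it holds 0 genes of chromosome 5. Genes of the response to low oxygen, 12 of 17 measured, had 0 called members, 1 above 0 and a median of -0.17, with Ankrd37 at 20.7 and 14.2 FPKM (-0.52), Kdm3a at 19.7 and 14.5 (-0.42) and Vegfa at 20.02 and 16.3 (-0.28).

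Interferon and antigen presentation genes also leaned to lower values. Of 27 listed genes 11 were measured and 1 was at least 2-fold lower, beside 0.647% of all genes. Of the 11, 2 lay above 0, beside 3104 of 8964. The median was -0.28 at 0 h and -0.43 at 24 h, beside -0.07 and -0.09 for all genes. Psmb9, a subunit of the immunoproteasome and the called gene, measured 1.61 FPKM in wild-type cells against 0.20 in knockout cells (-1.12). Its counting half-width was 1.41 on the log2 ratio of FPKM. Psmb9 reached the mean of 1 FPKM only through the wild-type libraries, so its call follows in part from the filter. H2-D1, a class I histocompatibility gene, stood at 54.4 and 36.7 (-0.55). The 2 members above 0 were Tap2 (0.03) and Stat2 (0.00), and B2m stood at -0.18 at 0 h and 0.27 at 24 h. Outside the list, Ifi27 (123 and 39.5 FPKM at 0 h, 136 and 50.9 at 24 h) was among the 15 lowest. So was Ifitm2 (62.1 and 24.8, then 51.3 and 12.1), and both are inducible by interferon. They were picked for their low ratios and add no support to the lean of the list.

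Of 32 listed cytoskeleton and adhesion genes 21 were measured and 1 was at least 2-fold lower, beside 0.647% of all genes. The median was -0.06, beside -0.07. Coro1a (chromosome 7, 126699774 to 126704816), which binds actin in blood cells, measured 30.2 FPKM in wild-type cells against 12.3 in knockout cells at 0 h and 17.6 against 3.57 at 24 h (-1.23 and -2.03). Actg1, gamma-actin, stood at 25.3 and 14.3 FPKM (-0.78) and Itgb2, an integrin of leukocytes, at 12.3 and 7.47 (-0.65). Actb, beta-actin, on chromosome 5, stood at 1039 and 1384 (0.41). At 24 h 4 of the measured members were at least 2-fold lower and 1 higher, beside 1.14% and 0.714% of all genes.

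Ribosomal protein genes had a median log2 ratio of -0.17, beside -0.07 for all genes. All 78 were measured and 1 was at least 2-fold lower (Rps27, with copies as above), beside 0.647% of all genes. The range was -3.59 to 0.49, and 7 lay above 0, beside 3104 of 8964 genes. Of those 7, 5 lie on chromosome 5, namely Rplp0, Rpl5, Rpl6, Rpl9 and Rpl21. Ribosome biogenesis factors, 33 of 34 measured, had 0 called members and a median of -0.08, with Nop56 at 207 and 161 FPKM (-0.36) and Npm1, nucleophosmin, at 2190 and 1788 (-0.29). At 24 h their median was -0.26. Cholesterol synthesis genes, 21 of 24 measured, had 0 called members and a median of 0.11. Of the 21, 17 lay above 0, beside 3104 of 8964 genes. Cyp51, on chromosome 5, stood at 28.4 and 40.5 FPKM and Lss at 26.2 and 31.8.

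**Figure D3:**
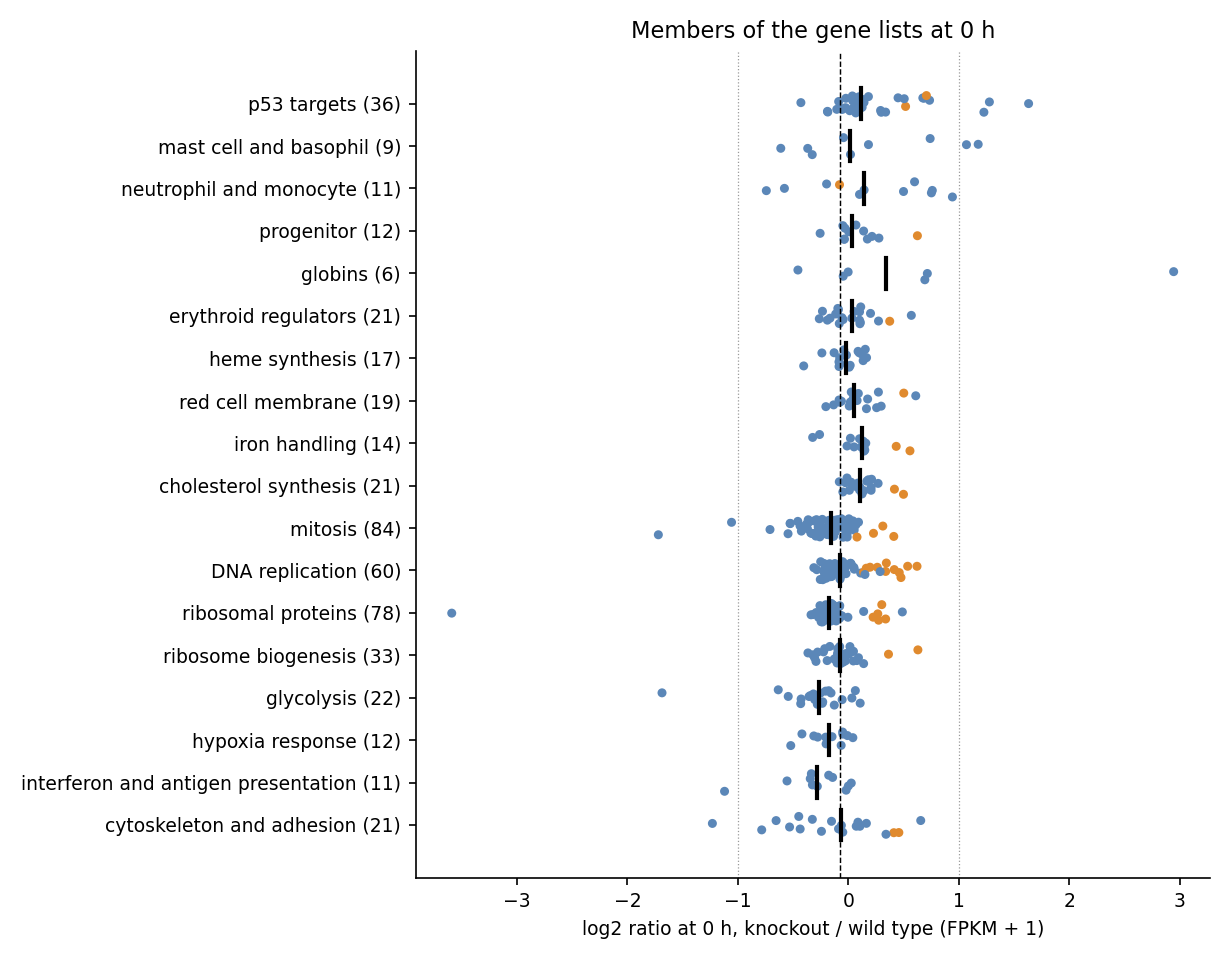
Log2 ratio at 0 h of every measured member of 18 gene lists (number measured in brackets), with a black bar at each median, a dashed line at the all-gene median of -0.07, dotted lines at 2-fold and chromosome 5 genes in orange. Most glycolysis and interferon genes lie to the left of the dashed line. Most p53 targets, iron handling and cholesterol synthesis genes lie to its right, and the orange points sit at the right end of most lists.

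Chromosome 5 stood apart from every other chromosome. The 549 genes placed on it, small and predicted loci left out, had a median log2 ratio of 0.40 at 0 h, and 524 of them (95.4%) lay above 0. The medians of chromosomes 1 to 4, 6 to 19 and X lay between -0.13 and -0.06, with 23.0% to 33.0% of their genes above 0. The difference between chromosome 5 and the pooled others was 0.49 at 0 h and 0.45 at 24 h, in libraries that the first comparison does not use. Over the 445 genes of the chromosome with at least 5 FPKM at 0 h, the median ratio of FPKM was 1.45 times that of the other chromosomes, and 1.41 times at 24 h.

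The shift ran along the whole chromosome. Of 14 windows of 10 Mb that held at least 8 genes, the lowest median was 0.29 and the highest 0.48 at 0 h, and 0.27 and 0.47 at 24 h. It was small per gene, so that only 2 chromosome 5 genes were 2-fold higher (Cldn3 and Reln). Another 2 were 2-fold lower (Aldh2 and Alox5ap, named after their values were seen). Aldh2 reached the mean of 1 FPKM only through the wild-type libraries, so its call follows in part from the filter. At 1.5-fold, 72 of the 128 higher genes lay on chromosome 5, which holds 6.53% of the 8408 placed genes, and 3 of the 172 lower ones.

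The most abundant genes of the chromosome follow it across unrelated functions. Rpl9, of the large ribosomal subunit, measured 2144 FPKM in wild-type cells against 2711 in knockout cells at 0 h and 2133 against 2602 at 24 h. Atp5k, a subunit of ATP synthase, measured 629 against 954 FPKM at 0 h and 682 against 858 at 24 h. Ran, which drives nuclear transport, measured 399 against 552 FPKM at 0 h and 407 against 438 at 24 h. In each the knockout library was the higher at both times. Under TPM these single ratios turn to lower at 0 h, while the difference from the other chromosomes kept its sign under every setting tried. Chd7 itself lies on chromosome 4, whose median was -0.08.

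**Figure D4:**
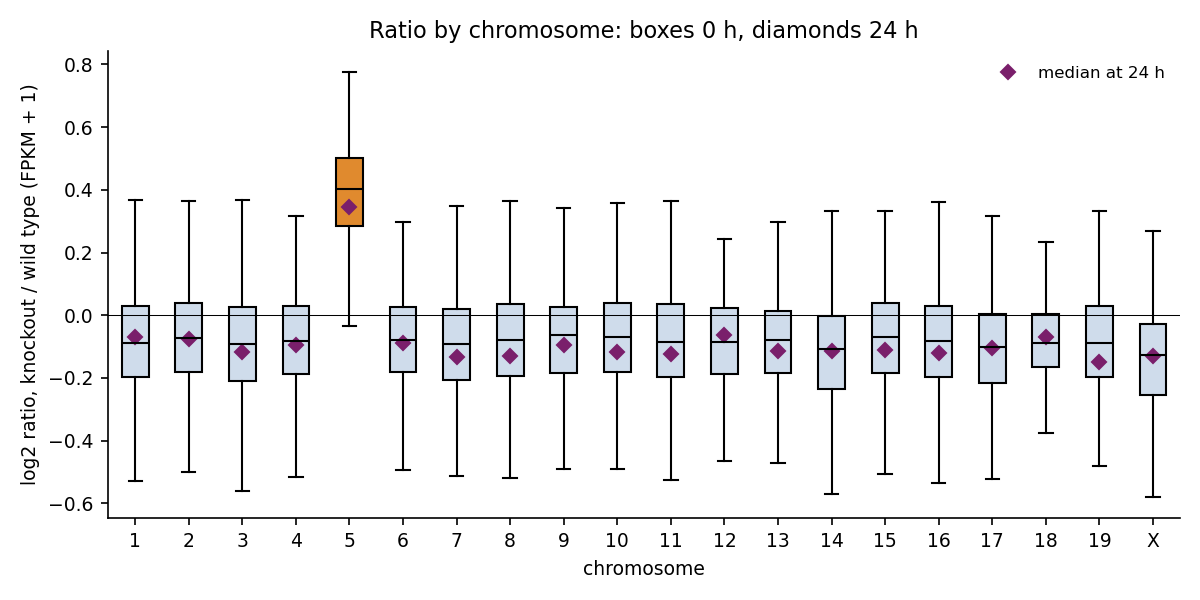
Boxes give the quartiles and median of the log2 ratio at 0 h for the genes of each chromosome, whiskers the most distant values within the usual Tukey limits (points beyond are not drawn), and diamonds the median at 24 h. Chromosome 5, in orange, has a median of 0.40 at 0 h, and all the other boxes are centred between -0.13 and -0.06.

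Most of what differed at 0 h differed after estradiol as well. At 24 h 64 of the 8964 genes were at least 2-fold higher in the knockout (0.714%) and 102 lower (1.14%), or 50 (0.592%) and 83 (0.983%) of 8440, together 1.58%, without small and predicted loci. Of the 46 genes lower at 0 h, 33 were also lower at 24 h, which is 71.7% of the first list and 39.8% of the second. Their median log2 ratio was -1.23 at 0 h and -1.22 at 24 h, and 45 of 46 kept their sign. Of the 15 genes higher at 0 h, 8 were also higher at 24 h, which is 53.3% of the first list and 16.0% of the second, and 13 kept their sign. The median of the 15 was 1.36 at 0 h and 1.03 at 24 h.

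The 8 genes higher at both times were Cd81, Hba-a2, Plod2, Zmat3, Trp53inp1, Eda2r and Col18a1, a collagen gene (1.56 and 4.29 FPKM at 0 h, 10.2 and 21.8 at 24 h), along with Cox6b2, a subunit of cytochrome oxidase known from testis. Cox6b2 is listed at 0 in wild type at 0 h and stood at 1.75 FPKM in the knockout, then at 0.31 and 9.24. Its counting half-width at 0 h was 4.06. Like Cd81 and Eda2r, Cox6b2 reached the mean of 1 FPKM only through the knockout libraries. The genes higher at 0 h that were not at 24 h include Cldn3, Cpa3, Ms4a2 and Slc45a3, and their levels at 24 h were below those at 0 h in both genotypes. Both pairs carry the same line and genotype labels, and whether they come from the same knockout clone is not stated.

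**Figure D5:**
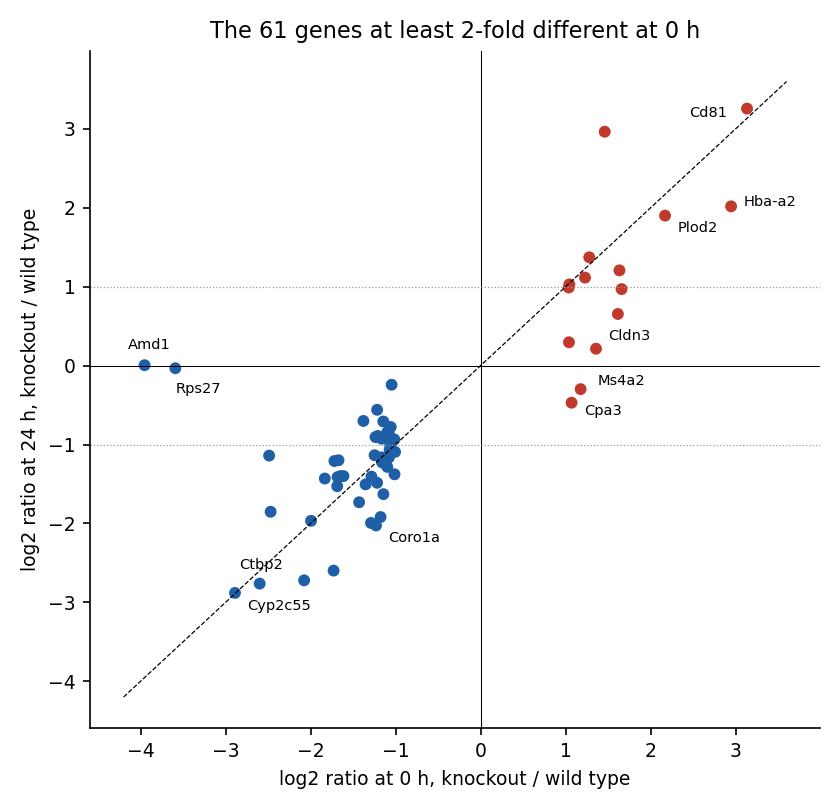
Log2 ratio of knockout over wild type at 0 h (x axis) and at 24 h (y axis) for the 61 genes at least 2-fold different at 0 h, small and predicted loci left out, with the diagonal dashed and 2-fold at 24 h dotted. Most points lie in the lower left and upper right, with Amd1 and Rps27 at 0 on the y axis and Cpa3 and Ms4a2 below it.

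The small RNA and predicted loci behaved differently from the other genes. They gave 24 of the 39 higher and 12 of the 58 lower calls, and 18 of the 24 are listed at 0 in wild type and 8 of the 12 at 0 in the knockout, so no fold is given for them. At 24 h 6 of the 24 and 6 of the 12 were called in the same direction, and 4 and 1 in the opposite one. Snord16a and Snora33, guides for modification of ribosomal RNA, stood at 1930 and 404 FPKM in wild type at 0 h and at 1555 and 349 at 24 h, and are listed at 0 in both knockout libraries. Snord49a stood at 544038 FPKM in the knockout at 0 h and is listed at 0 in the other 3 libraries. On loci this short 1 fragment is worth many FPKM, and the size selection of the libraries is not given in the sources used here.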

How the data were processed

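RNA was measured in 4 libraries, 1 per genotype and time, and the genotype and time came from the titles. The authors deposited FPKM, 1 value per gene symbol and library. Per the submitters' processing notes the tools were FastQC, cutadapt, TopHat2 2.0.11 and Cufflinks 2.2.1 on the mouse build GRCm38. The sources used here do not give their roles, the annotation, the handling of multiply mapped reads or the scaling between libraries.

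Values were compared as log2(FPKM + 1) for genes averaging 1 FPKM or more across the 4 libraries, and a gene was called at 2-fold. A gene near absent in 1 genotype can pass this filter only through the other, so such calls follow in part from it. The filter was the same for all genes described. Such genes number 8964; 10411 of the 23936 genes are listed at 0 in every library. With 1 library per group no test was possible. The members and the 29 gene lists were chosen with earlier results of these data known.

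Named genes are a fixed set (Chd7, Runx1, Gata1, Zmat3, Cpa3, Ccnb2), the 15 highest and 15 lowest ratios at 0 h with at least 5 FPKM, up to 5 members at either end of each list or role, up to 10 genes per direction called at both times, and up to 8 abundant genes of chromosome 5. Small RNA and predicted loci were told by their names. Positions are RefSeq GRCm38.p6 by symbol or unique synonym (8924 genes, 99.6%).

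Depth was sought between 8 M and 30 M as the fragment step that made the low FPKM values of single-transcript genes of at least 3 kb whole within 5%. At the depth found 62.8% to 67.1% of values were whole, against 12.9% to 15.7% at other depths, so the depths are rough and counts were not tested. The calling and depth steps were tested on simulated data. Python 3.11.15, numpy 2.4.6, pandas 2.3.3 and matplotlib 3.10.9 were used. Some results that fall under these rules are not reported here.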

Additional observations from a re-analysis of the deposited data

Results flagged for a closer look

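For 5 named genes the log2 ratio of knockout over wild type had opposite signs before and after estradiol and was at least 2-fold at 1 of the times. In Amd1, Dmtn and Tspan4 the other ratio was close to 0 and is not a difference in the opposite direction. The difference between the times was not tested, since each ratio rests on 1 library per genotype. Cpa3 had log2 ratios of 1.07 at 0 h and -0.47 at 24 h, and Ms4a2 of 1.18 and -0.30. At 24 h both stood at about 1 FPKM or less in each genotype, where counting error leaves the order uncertain. Amd1 had -3.95 and 0.01, with 0.02 FPKM in both genotypes at 24 h. Dmtn, a membrane skeleton gene, had -0.083 and 1.11, the first of them at 0.24 and 0.17 FPKM with a counting half-width of 0.98. Tspan4, a tetraspanin gene, had 0.16, within its counting half-width of 0.22, and -1.62.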

How the results depend on the processing

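No paired analysis was possible because each group holds 1 library and the replicate numbers only name it. For the same reason no replicate could be left out. For the 26 lists followed, 273 of 283 medians relative to all genes over the settings stayed within their interval, 10 did not and 0 turned their direction. A turn was counted only for lists beyond a set distance from all genes, and a scaling factor nearly cancels in such a median. This count therefore says little. Of 198 values of the 33 named genes called at 0 h, 0 changed sign. Adding a number to FPKM cannot change a sign, and scaling moved the ratios by less than 2-fold, so this was set in advance.

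Counts depended on the small number added to FPKM. With 0.1 FPKM added, 61 genes were higher and 112 lower at 0 h, 118 and 199 at 24 h, and 27 and 69 at both times (39 and 58, 64 and 102, and 14 and 39 with 1 FPKM); the chromosome 5 difference was 0.53 at 0 h and 0.49 at 24 h. With 5 FPKM added, lower genes no longer outnumbered higher ones at 0 h, with counts of 25 and 23, 25 and 40 at 24 h, and 8 and 16 at both times, the chromosome 5 difference 0.37 and 0.33, and the list medians relative to all genes 0.11 for p53 targets and -0.12 for ribosomal proteins. With all 13525 genes above 0 in any library, the chromosome 5 difference was 0.38 and 0.28, and the relative medians were 0.032 for progenitor genes, -0.13 for mitosis, -0.14 for ribosomal proteins and -0.048 for ribosome biogenesis. At a mean of at least 5 FPKM, 34 genes were lower at 0 h, 35 higher at 24 h, and 9 and 23 at both times, and the chromosome 5 difference at 0 h was 0.50. TPM scaling gave 1118 lower genes at 0 h and 73 at both times, with relative medians of -0.14 for mitosis, -0.071 for DNA replication, -0.19 for ribosomal proteins and -0.076 for ribosome biogenesis. Without small and predicted loci 15 genes were higher at 0 h and 8 at both times. The equal sum over the other loci and the 24 h counts under these settings were added after the data were seen.

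Depth limits genes of low abundance: at 1 FPKM the counting half-width alone was 0.73, and 2-fold calls were 2.53% of genes with 1 to 2 FPKM. Each ratio holds for these libraries only.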

Other observations

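Genes of the chromatin remodelling machines to which CHD7 belongs were close to wild type at 0 h. Of 34 listed remodeler genes 29 were measured, 0 were called and the median log2 ratio was -0.04, beside -0.07 for all genes. The related helicases Chd3 (11.6 and 9.16 FPKM in wild-type and knockout cells), Chd9 (2.11 and 1.71) and Chd6 (6.30 and 5.39) had ratios between -0.31 and -0.19, and Baz1b and Ep400, both on chromosome 5, were highest at 0.54 and 0.48. Of 15 developmental genes linked to CHD7, 1 was measured. This was Reln, which encodes the secreted guidance protein reelin and lies on chromosome 5, at 1.90 and 4.95 FPKM at 0 h and 2.02 and 4.99 at 24 h (1.04 and 0.99). Of 22 RUNX factors and known targets 7 were measured, 0 were called and the median was -0.05.

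No measured survival or signalling gene was 2-fold different at 0 h, though the signalling list leaned to higher values. The BCL2 family had 9 of 17 members measured, 0 called and a median of -0.11, with Bak1, which opens mitochondria in cell death, at 23.9 and 16.4 FPKM (-0.51) and Bcl2l1, the survival gene of maturing red cells, at 1.73 and 3.22 (0.63). Cytokine receptor and signalling genes had 18 of 30 measured, 0 called and a median of 0.12. Egr1, an early response gene, was lowest at 7.51 and 3.65 FPKM (-0.87), and Csf2rb, the shared beta chain of the receptors for interleukin-3, interleukin-5 and GM-CSF, was highest at 2.41 and 4.63 (0.72), reaching 38.2 and 138 at 24 h (1.83). Amino acid stress genes had 18 of 21 measured, 0 called and a median of -0.01, with Asns, asparagine synthetase, at 608 and 504 FPKM (-0.27).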
